A study of Mus musculus with 10 samples.

Results

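The levels of 10 collagen and stromal matrix genes were followed through 10 primary mediastinal T cell lymphomas of mice, with 1 microarray per lymphoma. They are Col1a1, Col1a2, Col3a1, Col5a1, Sparc, Dcn, Lum, Mgp, Cthrc1 and Acta2, 10 of the 19937 genes that had a probe set with a single gene symbol. Each was read from the probe set with the highest mean, and each of the 10 had 1 such probe set. They were chosen by function with their levels in these lymphomas, by genotype and by Cd2, already known, so all counts and p-values of the 10 are descriptions that support nothing on their own. The lymphomas were 5 WASP-deficient (labelled WASP -/-) and 5 WASP-intact (labelled WT) ones, each labelled a biological replicate. All the mice carried the NPM-ALK transgene on a c57BL/6 background, the lymphomas arose at 4 to 5 months of age, and no treatment was given. The transgene encodes the fusion kinase known from human anaplastic large cell lymphomas. The gene Was encodes WASP, which activates actin branching in blood cells. WASP-deficient mice of both sexes entered the study. Neither the sex of a given mouse nor the promoter of the transgene is given in the sources used here. The comparison asks which lymphoma transcripts differ when WASP is missing.

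Fibrillar collagens are the rope-like proteins of connective tissue, made mainly by fibroblasts and related stromal cells and only little by lymphocytes. Small proteoglycans such as decorin and lumican coat the fibrils and set their width, and secreted proteins such as SPARC steer how collagen is laid down. Fibroblasts that are activated, for example by TGF-beta, can also make smooth muscle actin, the contractile protein encoded by Acta2. In a whole lymphoma these transcripts come from a mixture of tumour and stroma, and fewer stromal cells and less RNA per stromal cell cannot be told apart. Levels below are log2 intensity, differences are WASP-deficient minus WASP-intact on the log2 scale, and n was 5 arrays per genotype.

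Was, the targeted gene, separated the genotypes and was the 1 gene that passed (difference -1.14, SE 0.08, limma adjusted p = 0.00088). That call was lost with the replicate number as a block (difference -1.14, limma adjusted p = 0.136) and with Xist as a covariate (difference -1.06, limma adjusted p = 0.376). Was ranged from 7.92 to 8.20 in WASP-deficient lymphomas and from 9.11 to 9.34 in WASP-intact ones. The T cell receptor component Cd3e ranged from 12.07 to 12.59 in WASP-deficient and from 12.21 to 12.38 in WASP-intact lymphomas. Its partner chains Cd3d and Cd3g were less even. Cd3d was at 6.47 (WASP-deficient 1), 5.26 (WASP-intact 4) and 5.6 (WASP-intact 5), against 8.96 to 10.08 on the other arrays. Cd3g was at 10.24, 6.29 and 6.97 on the same arrays, against 11.45 to 12.23 on the others. Array medians lay between 116.73 and 122.73 on the linear scale. Cd2, an adhesion receptor of T cells, sorted the arrays into 3 at 11.52 (WASP-deficient 1), 11.18 (WASP-intact 4) and 11.30 (WASP-intact 5) and 7 at 6.10 to 6.90. No array lay near the dividing level of 9, and the sets found in this way are not groups of the study. Xist, which marks cells with 2 X chromosomes, ranged from 4.5 to 5.58 in WASP-deficient lymphomas. In WASP-intact lymphomas it ranged from 11.52 to 11.90 except for 4.40 in replicate 3, so that genotype and Xist level cannot be told apart for the other 4. Kdm5d, a gene of the Y chromosome, ranged from 8.20 to 9.19 in WASP-deficient lymphomas. In WASP-intact lymphomas Kdm5d ranged from 4.61 to 5.51 except for 8.68 in replicate 3. By both genes the WASP-deficient arrays and WASP-intact array 3 had a male pattern, and the other 4 WASP-intact arrays a female one. Genotype and sex, as read from these genes, were thus nearly confounded.

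Proximal promoters are shown for 4 genes, because Col1a2 and Col3a1 varied together over the arrays while Col5a1 and Acta2 did not vary with them. Each is the 250 bases before the RefSeq start site in GRCm38.p6, read 5′ to 3′ on the strand of the gene. RefSeq promoters were matched for 5 of the 10 genes, with Sparc as the other one, and Col1a1, Dcn, Lum, Mgp and Cthrc1 are named only. Col1a2 lies at chr6:4505368-4505617 (plus strand), Col3a1 at chr1:45311288-45311537 (plus strand), Col5a1 at chr2:27886175-27886424 (plus strand) and Acta2 at chr19:34255374-34255623 (minus strand). Capitals mark the motif CCAAT, the motif TATAAA or the motif GGGCGG, on either strand.
Col1a2: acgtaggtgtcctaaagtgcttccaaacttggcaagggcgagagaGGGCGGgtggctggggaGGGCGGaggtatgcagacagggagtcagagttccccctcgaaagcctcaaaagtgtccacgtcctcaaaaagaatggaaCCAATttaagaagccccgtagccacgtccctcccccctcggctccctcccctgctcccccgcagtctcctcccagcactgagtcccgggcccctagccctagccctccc
Col3a1: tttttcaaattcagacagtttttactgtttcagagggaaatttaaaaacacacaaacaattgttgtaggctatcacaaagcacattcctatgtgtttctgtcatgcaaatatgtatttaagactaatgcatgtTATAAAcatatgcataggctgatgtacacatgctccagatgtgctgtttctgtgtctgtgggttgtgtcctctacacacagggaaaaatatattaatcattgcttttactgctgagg
Col5a1: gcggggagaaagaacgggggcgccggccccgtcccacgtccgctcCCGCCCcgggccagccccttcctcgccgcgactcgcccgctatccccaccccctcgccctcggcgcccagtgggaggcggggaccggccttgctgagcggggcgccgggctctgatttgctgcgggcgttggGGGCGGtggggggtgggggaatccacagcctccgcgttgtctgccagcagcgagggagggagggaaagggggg
Acta2: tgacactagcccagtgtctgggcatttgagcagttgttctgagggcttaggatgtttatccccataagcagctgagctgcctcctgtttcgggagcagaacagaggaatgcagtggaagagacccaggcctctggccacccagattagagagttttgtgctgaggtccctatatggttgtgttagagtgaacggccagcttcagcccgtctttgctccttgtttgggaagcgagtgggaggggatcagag
The Col1a2 window held CCAAT, the letters of the CCAAT box, 109 to 105 bases before the start, and GGGCGG, the GC box bound by Sp1, at 205 to 200 and at 188 to 183 bases. Col5a1 held GGGCGG at 73 to 68 bases and on the other strand at 205 to 200 bases, and Col3a1 held TATAAA at 117 to 112 bases. No match overlapped another. Of 32536 RefSeq promoters with distinct windows of the same length, 33.8% held CCAAT, 12.3% TATAAA and 33% GGGCGG. The CArG box, CC and GG around a run of A or T letters, was searched as well. It was found in 0 of the windows of the 5 matched genes and in 1.48% of all windows. Only exact matches were counted, so a window without capitals may still hold near forms. GC content was 62.0% for Col1a2, 35.2% for Col3a1, 76.4% for Col5a1 and 53.6% for Acta2, around a median of 52.4% for all windows. A match is a description and not a binding site.

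The mean level was lower in WASP-deficient lymphomas for all of the 10 genes but Acta2, and none of the differences passed the test. Of 9 genes above the filter on dim probe sets, 8 had negative differences and 1, Acta2, a positive one, where 51.1% of all 12670 genes tested were negative. Of the 9, 5 had a difference of -0.5 or below and 1 of 0.5 or above, where 1.78% and 2.11% of all genes did. The median difference was -0.57, against -0.0038 for all genes tested. None of the 9 passed at an adjusted p of 0.05 (limma, adjusted over all genes), and 0.00789% of all genes did, namely Was alone. At an unadjusted p under 0.05 there were 3 lower genes (Col3a1, Mgp, Cthrc1) and 1 higher gene (Acta2), where 2.89% of all genes reached that level, 1.33% as lower and 1.56% as higher. The remaining gene, Lum, had a mean of 6.34, just under the filter of 6.35, and its values come from the same fit without the filter. With arrays weighted by quality the median difference was -0.19.

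**Figure D1:**
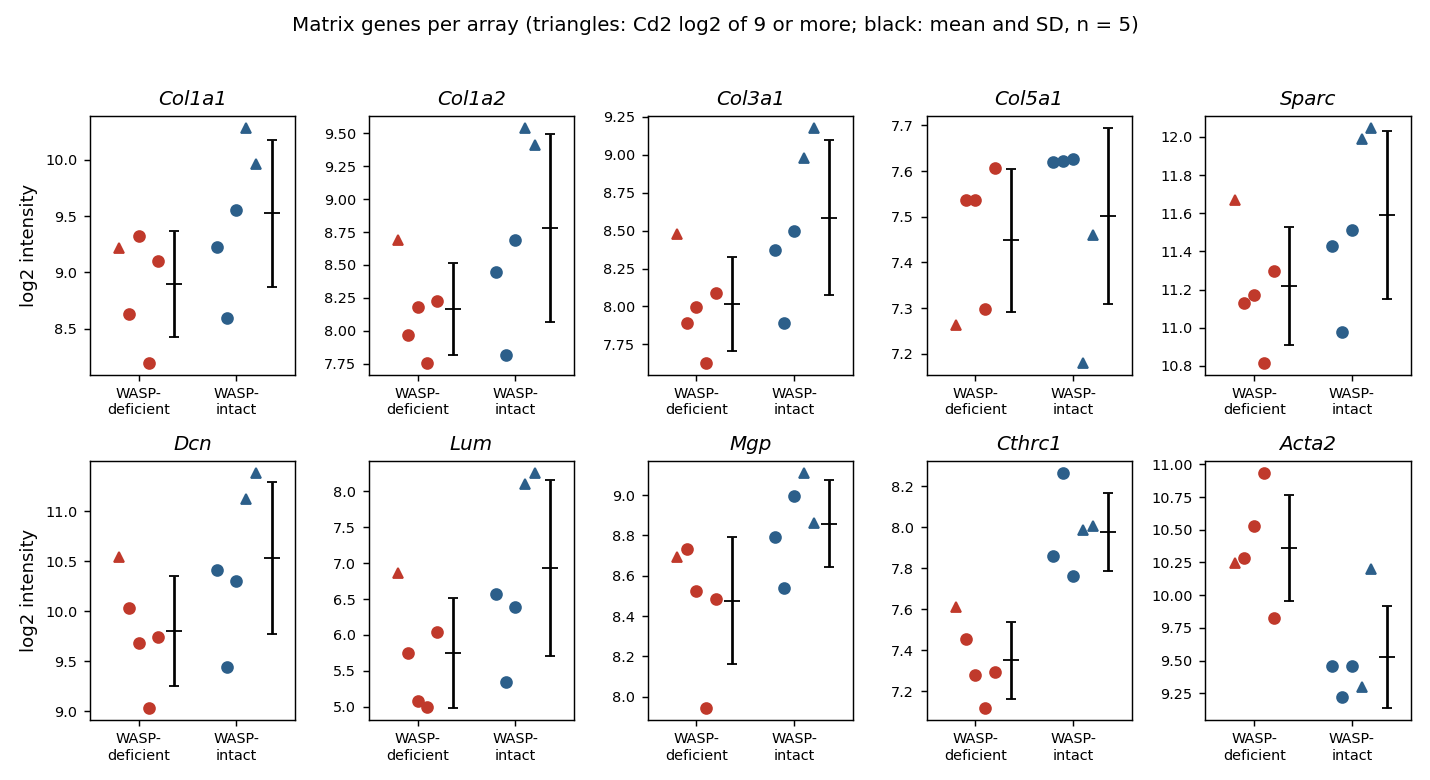
Level of each matrix gene on every array (vertical axis, log2 intensity, scaled separately per gene), WASP-deficient left and WASP-intact right, arrays 1 to 5 from left to right within a genotype; triangles are the 3 arrays with Cd2 at 9 or more and black bars are mean and SD (n = 5). Cthrc1 has no overlap between the genotypes, from 7.12 to 7.61 in WASP-deficient and 7.76 to 8.26 in WASP-intact lymphomas, and Acta2 is the single gene with the higher mean in WASP-deficient lymphomas.

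Type I and type III collagen transcripts had lower means in the WASP-deficient lymphomas with wide overlap. Col1a1, which encodes the alpha 1 chain of type I collagen, was at 9.22, 8.63, 9.32, 8.20 and 9.11 on WASP-deficient arrays 1 to 5, against 9.22, 8.60, 9.55, 10.28 and 9.96 on WASP-intact arrays 1 to 5. The groups overlapped, the top levels were those of WASP-intact arrays 4 and 5, and the lowest was that of WASP-deficient array 4. Means were 8.90 ± 0.47 in WASP-deficient and 9.52 ± 0.66 in WASP-intact lymphomas (SD, n = 5 each). The difference was -0.63 (SE 0.32, 95% interval -1.35 to 0.09, limma adjusted p = 0.999), or 0.647 of the WASP-intact level. Its partner chain Col1a2 was at 8.69, 7.97, 8.18, 7.76 and 8.23 on the WASP-deficient arrays and at 8.45, 7.81, 8.69, 9.54 and 9.41 on the WASP-intact arrays. The same arrays were highest and lowest as for Col1a1. The Col1a2 difference was -0.62 (SE 0.32, interval -1.32 to 0.09, limma adjusted p = 0.999).

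Col3a1, the type III collagen of soft tissues, was at 8.48, 7.89, 7.99, 7.63 and 8.09 in WASP-deficient and at 8.37, 7.89, 8.5, 8.98 and 9.18 in WASP-intact lymphomas. Here too WASP-intact arrays 4 and 5 stood at the top and WASP-deficient array 4 at the bottom, and the groups overlapped. The difference was -0.57 (SE 0.24, interval -1.11 to -0.03, limma adjusted p = 0.999). Col5a1, the type V chain that starts fibrils, behaved unlike these 3. It was at 7.26, 7.54, 7.54, 7.30 and 7.61 on the WASP-deficient arrays and at 7.62, 7.62, 7.63, 7.18 and 7.46 on the WASP-intact arrays. Its lowest level was that of WASP-intact array 4, where Col1a1 and Col1a2 were highest, and it spanned only 1.36-fold over all 10 arrays. The difference was -0.05 (SE 0.11, interval -0.30 to 0.20).

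The collagen-binding glycoprotein gene Sparc was the brightest of the 10 probe sets, above 97.1% of all probe sets by its mean. It was at 11.67, 11.13, 11.17, 10.82 and 11.30 in WASP-deficient and at 11.43, 10.98, 11.51, 11.99 and 12.05 in WASP-intact lymphomas. Levels overlapped, again with WASP-intact arrays 4 and 5 at the top and WASP-deficient array 4 at the bottom. The difference was -0.37 (SE 0.22, interval -0.86 to 0.11, limma adjusted p = 0.999).

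The small leucine-rich proteoglycans had the widest spread of the 10 genes. Dcn (decorin) was at 10.54, 10.03, 9.68, 9.03 and 9.74 on the WASP-deficient arrays, against 10.41, 9.45, 10.30, 11.13 and 11.38 on the WASP-intact arrays, which is 5.10-fold from lowest to highest. Lum (lumican) was at 6.86, 5.75, 5.09, 4.99 and 6.04 on the WASP-deficient arrays and at 6.57, 5.35, 6.39, 8.10 and 8.25 on the WASP-intact arrays, a 9.59-fold span. In both genes WASP-intact arrays 5 and 4 led, followed by WASP-deficient array 1. The differences were -0.73 for Dcn (SE 0.37, interval -1.56 to 0.10, limma adjusted p = 0.999) and -1.19 for Lum (SE 0.57, interval -2.44 to 0.07, limma adjusted p = 0.999 without the filter). Lum was under the filter level of 6.35 in replicates 2, 3, 4 and 5 of the WASP-deficient and in replicate 2 of the WASP-intact lymphomas.

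Mgp encodes matrix Gla protein, an inhibitor of calcification. It was at 8.69, 8.73, 8.53, 7.94 and 8.49 in WASP-deficient and at 8.79, 8.54, 9.0, 9.11 and 8.86 in WASP-intact lymphomas. All but WASP-deficient array 4 lay within a narrow band, and the groups overlapped. The difference was -0.38 (SE 0.16, interval -0.74 to -0.03, limma adjusted p = 0.999), and leaving out WASP-deficient array 4 moved it to -0.25.

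Cthrc1 separated the genotypes completely without passing the test. It encodes a secreted glycoprotein with a short collagen-like repeat, known from the remodelling of injured arteries in rodents. Levels were 7.61, 7.45, 7.28, 7.12 and 7.29 on WASP-deficient arrays 1 to 5 and 7.86, 8.26, 7.76, 7.99 and 8.01 on WASP-intact arrays 1 to 5. The highest WASP-deficient level lay below the lowest WASP-intact level, and 0.245% of all genes tested had that pattern. Means were 7.35 ± 0.19 in WASP-deficient and 7.98 ± 0.19 in WASP-intact lymphomas (SD, n = 5 each), a difference of -0.62 (SE 0.12, interval -0.89 to -0.36), or 0.649 of the WASP-intact level. The unadjusted limma p of 0.000337 ranked 3 among 12670 genes and the adjusted p was 0.999. Over 21 alternative settings the adjusted p lay between 0.249 and 1.0. Unlike the type I collagens, Cthrc1 had its highest level on WASP-intact array 2, where Col1a1 was at 8.60. WASP-intact array 3, which had Xist as low as the WASP-deficient arrays, was at 7.76, the lowest WASP-intact level, against a highest WASP-deficient level of 7.61. With Xist as a covariate the difference was -0.45 (SE 0.19). Only 1 WASP-intact array had low Xist, and the part of Xist level in the difference was not tested.

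Acta2 had the higher mean in WASP-deficient lymphomas. It was at 10.24, 10.28, 10.53, 10.93 and 9.82 in WASP-deficient lymphomas 1 to 5 and at 9.46, 9.22, 9.46, 9.30 and 10.20 in WASP-intact lymphomas 1 to 5. Groups overlapped through array 5 of each genotype alone. Acta2 is therefore not among the 0.324% of all genes that were higher in WASP-deficient lymphomas with no overlap. Means were 10.36 ± 0.41 in WASP-deficient and 9.53 ± 0.39 in WASP-intact lymphomas (SD, n = 5 each), so the WASP-deficient level was 1.78-fold the WASP-intact level. The difference of 0.83 (SE 0.23, interval 0.33 to 1.34) ranked 34 by p among 12670 genes and did not pass (limma adjusted p = 0.999). WASP-deficient array 4 had the highest Acta2 level and the lowest level of 8 of the other 9 genes. With Xist as a covariate the difference was 0.90 (SE 0.39), and WASP-intact array 3, at 9.46, lay below all 5 WASP-deficient arrays. That is 1 array, and the part of Xist level in the Acta2 difference was not tested.

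**Figure D2:**
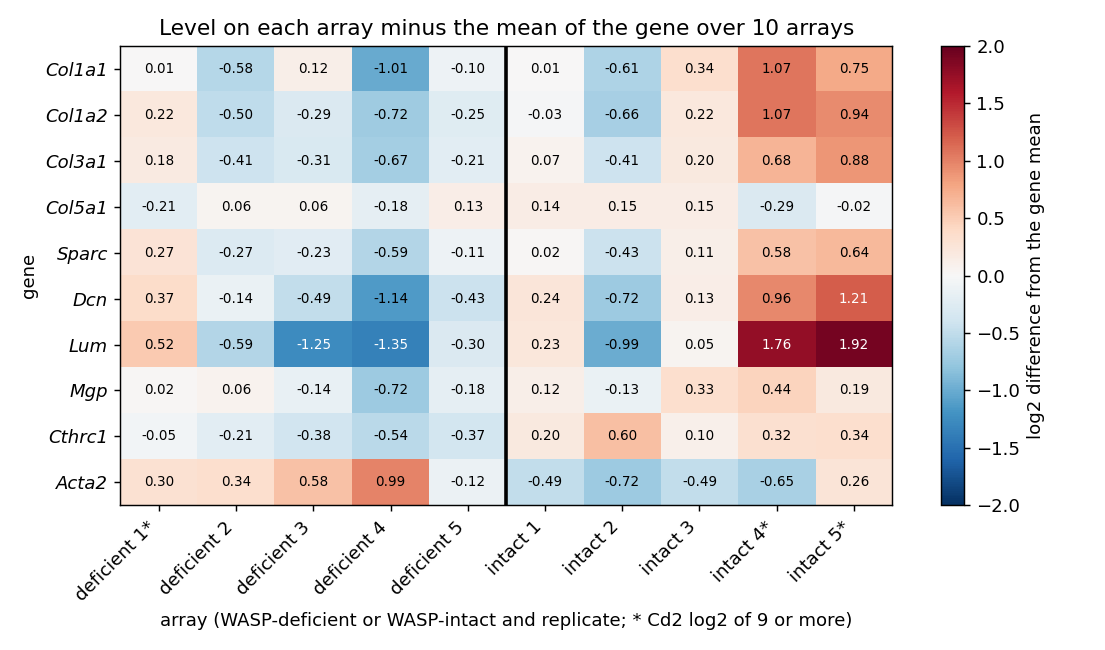
Level of each gene (rows) on each array (columns, WASP-deficient left of the black line and WASP-intact right; stars mark Cd2 at 9 or more) minus the mean of that gene over 10 arrays, in log2 units. Col1a1, Col1a2, Col3a1, Sparc, Dcn, Lum and Mgp are all above their means on WASP-deficient array 1 and on arrays 3, 4 and 5 of the WASP-intact lymphomas and all at their lowest on WASP-deficient array 4, while the Acta2 row runs differently and the Col5a1 row is almost flat.

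A set of 7 genes, Col1a1, Col1a2, Col3a1, Sparc, Dcn, Lum and Mgp, ordered the lymphomas nearly alike. These 7 were picked from the 10 with their values known, and Col5a1, Cthrc1 and Acta2, which ordered the arrays otherwise, were left out. Their likeness thus follows from the choice, and how many of all genes hold the same places was not counted. On WASP-deficient array 4 all 7 were at their lowest. WASP-intact array 4 held one of the top 2 places for 7 of the 7 and WASP-intact array 5 for 6, with WASP-intact array 3 in the other place for Mgp. WASP-deficient array 1 held rank 3 for 4 of them. The SD was larger in WASP-intact than in WASP-deficient lymphomas for 8 of the 10 genes, the exceptions being Mgp and Acta2. All 10 arrays were used for the ranks, and the arrays share quantile normalization.

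Closeness to the mean centred profile of Col1a1, Col1a2 and Col3a1 was measured as the root mean square difference over the 10 arrays, where a flat gene would score 0.54. Sparc scored 0.18, Dcn 0.26 and Mgp 0.35, while Cthrc1 scored 0.48, Lum 0.61, Col5a1 0.62 and Acta2 0.91. The values were not scaled, so a gene with a wider span scores higher even where it orders the arrays alike. Lum, with its 9.59-fold span, ordered the arrays nearly as the 3 collagens did. Among the other 12661 genes the nearest were Bgn (0.17), the proteoglycan biglycan, Cdh11 (0.17), a cadherin of mesenchymal cells, Folr2 (0.19), a folate receptor of macrophages, and Ptpre (0.21), a tyrosine phosphatase. Mxra8 (0.21), a membrane protein, Mfap4 (0.21), a microfibril protein, Mrc2 (0.22), the endocytic collagen receptor, and Akna (0.22), a DNA-binding protein of lymphocytes, completed the 8. Bgn ran from 9.15 on WASP-deficient array 4 to 10.93 on WASP-intact array 4, and so was extreme on the same arrays as Col1a1.

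The 3 arrays with high Cd2 lay above the 7 others for Col1a2, Sparc, Dcn and Lum and overlapped with them for the other 6 genes. For Col1a1 they were at 9.22 (WASP-deficient 1), 10.28 (WASP-intact 4) and 9.96 (WASP-intact 5), against 8.20 to 9.55 on the 7 arrays with low Cd2. WASP-deficient array 1 lay below 3 of those 7, so the ranges overlapped. For Dcn the 3 were at 10.54, 11.13 and 11.38, against 9.03 to 10.41, and for Sparc at 11.67, 11.99 and 12.05, against 10.82 to 11.51. Lum was at 6.86, 8.10 and 8.25 on them, against 4.99 to 6.57. These 3 genes did not overlap, nor did Col1a2, although WASP-deficient array 1 and WASP-intact array 3 were both at 8.69. Col3a1 (8.48 to 9.18 against 7.63 to 8.5), Mgp (8.69 to 9.11 against 7.94 to 9.0), Cthrc1 (7.61 to 8.01 against 7.12 to 8.26) and Acta2 (9.30 to 10.24 against 9.22 to 10.93) overlapped. Col5a1 overlapped as well, at 7.18 to 7.46 against 7.30 to 7.63. Of the 9 genes above the filter, 3 were thus higher without overlap and 0 lower, where 14.4% of all genes were higher and 16.1% lower in that way. Because the arrays were sorted on a measured level, these ranges are a description with no test.

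Among the 7 arrays with low Cd2, 4 WASP-deficient and 3 WASP-intact, the differences of Col1a1, Col1a2 and Col3a1 were smaller than on all 10 arrays, and those of Col5a1, Cthrc1 and Acta2 were larger. Col1a1 differed by -0.31 (SE 0.30), Col1a2 by -0.28 (SE 0.21), Col3a1 by -0.35 (SE 0.17), Sparc by -0.20 (SE 0.16), Dcn by -0.43 (SE 0.28) and Lum by -0.63 (SE 0.34). Acta2 ranged from 9.82 to 10.93 in WASP-deficient and from 9.22 to 9.46 in WASP-intact lymphomas, a difference of 1.01 (SE 0.23). Cthrc1 ranged from 7.12 to 7.45 in WASP-deficient and from 7.76 to 8.26 in WASP-intact lymphomas, a difference of -0.68 (SE 0.14). Neither passed (limma adjusted p = 0.999 for Acta2 and 0.844 for Cthrc1). Col5a1 also had no overlap, at 7.30 to 7.61 against 7.62 to 7.63, a difference of -0.13 (SE 0.11). Ranges of these 4 and 3 arrays did not overlap for 2.15% of all genes as lower and for 1.91% as higher.

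**Figure D3:**
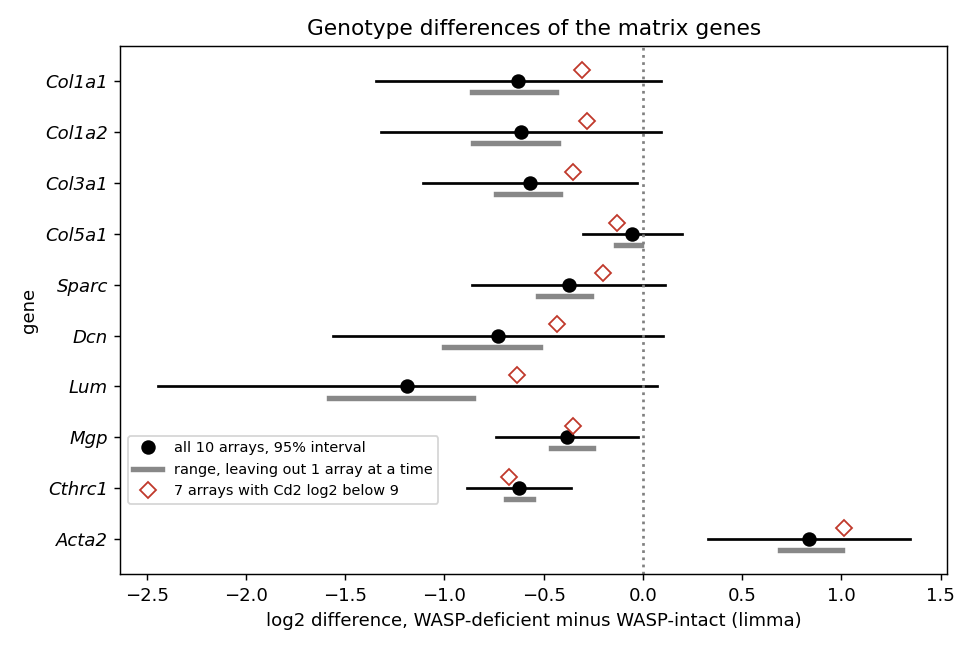
Genotype difference of each gene (horizontal axis, log2, WASP-deficient minus WASP-intact). Black points and lines are the limma estimates with 95% intervals on all 10 arrays (Lum without the filter), grey bars the range when 1 array at a time is left out and open diamonds the 7 arrays with Cd2 below 9. The diamonds lie nearer to 0 than the points for Col1a1 (-0.31 against -0.63) and Dcn (-0.43 against -0.73) and farther from it for Acta2 (1.01 against 0.83).

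Other collagen lists were split in direction. Of 7 other fibrillar collagen genes tested, 3 had higher and 4 lower values with a median of -0.02, and none passed. Col5a2, a partner of Col5a1, differed by -0.19, Col27a1 by -0.24 and Col24a1 by 0.04. Among 16 fibril-associated and other interstitial collagen genes, 8 had higher and 8 lower values (median 0.01, 0 passed), with Col14a1 at -0.44, Col9a3 at -0.21 and Col6a3 at -0.20. Basement membrane genes, 14 tested, had 6 higher and 8 lower values (median -0.01, 0 passed), with the linker gene Nid1 at -0.37 and the laminin genes Lamc1 and Lamb1 at 0.35 and 0.33.

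All 5 other small leucine-rich proteoglycan genes tested had negative values (median -0.49, 0 passed), with Aspn (asporin) at -0.99 (SE 0.40), Ogn (osteoglycin) at -0.80 (SE 0.52) and Bgn at -0.49. The Ogn mean was 6.22 in WASP-deficient lymphomas, under the filter level of 6.35, and 7.02 in WASP-intact ones. Aspn was at 6.05 to 7.51 in WASP-deficient and at 6.81 to 8.78 in WASP-intact lymphomas, again highest on WASP-intact array 4 and lowest on WASP-deficient array 4. Of 18 other matricellular and elastic fibre genes, 14 had lower and 4 higher values (median -0.18, 0 passed). The large proteoglycan gene Vcan differed by -0.95 (SE 0.69) and the microfibril gene Mfap5 by -0.78 (SE 0.41). Vcan was at 8.01 to 9.11 on the 3 arrays with high Cd2, against 5.81 to 6.52 on the others. Tnc (tenascin C), a protein of wounds and tumour stroma, differed by 0.87 (SE 0.34), with 7.0 to 8.09 in WASP-deficient and 5.69 to 7.43 in WASP-intact lymphomas. On the 3 arrays with high Cd2, 9 of these 18 genes and 3 of the 5 other small leucine-rich proteoglycan genes were higher without overlap, where 14.4% of all genes were. In both lists 0 were lower, against 16.1% of all genes. Shares were smaller in related lists, given as higher and lower. Other fibrillar collagens had 0 and 0 of 7, interstitial collagens 3 and 0 of 16 and basement membrane genes 2 and 3 of 14. Collagen modification had 5 and 4 of 17, collagen breakdown 2 and 2 of 8 and TGF-beta signalling 4 and 2 of 17. Fibroblast genes had 2 and 0 of 12 and smooth muscle and pericyte genes 1 and 2 of 17.

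Enzymes that build and cut collagen showed no common direction. Of 17 collagen modification and assembly genes, 8 had higher and 9 lower values (median -0.0053, 0 passed), with Pcolce, the enhancer of procollagen cleavage, at -0.43, the lysyl hydroxylase gene Plod1 at 0.38 and the crosslinking oxidase gene Loxl1 at -0.31. Collagen breakdown genes and their inhibitors, 8 tested, split into 4 and 4 (median -0.08, 0 passed), with the gelatinase gene Mmp2 at -0.58, its inhibitor Timp1 at -0.50 and Mrc2 at -0.38. Among 17 TGF-beta signalling genes, 8 had higher and 9 lower values (median -0.0040, 0 passed), with Tgfb3 at 0.79, the latent TGF-beta binding protein genes Ltbp1 at -0.58 and Ltbp3 at 0.51. On the 3 arrays with high Cd2, Ltbp1 (SE 1.05) was at 10.06 to 10.36, against 6.35 to 6.55 on the others. Tgfb3 (SE 0.61) was at 7.27 to 8.57 there, against 9.41 to 10.82, and Plod1 (SE 0.33) at 8.65 to 8.81, against 9.695 to 10.22. Of those 3 arrays 1 was WASP-deficient and 2 were WASP-intact, and the part of Cd2 level in these differences was not tested.

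Markers of fibroblasts and of contractile cells were split as follows. Of 12 genes of fibroblast surface proteins and transcription factors, 10 had lower and 2 higher values (median -0.07, 0 passed), with the dermatopontin gene Dpt at -1.21 (SE 0.46), Pdgfra at -0.28 and Prrx1 at -0.23. Thy1 of that list is also a T cell gene. Of 17 smooth muscle and pericyte genes, 9 had higher and 8 lower values (median 0.0024, 0 passed). At an unadjusted limma p under 0.05, 3 of them were higher and 0 lower, where 1.56% and 1.33% of all genes were. Des (desmin) and Tpm2 differed by -0.67 and -0.48, and both were highest on WASP-intact array 4, at 10.24 and 9.89. On all other arrays Des was at 6.27 to 6.66 and Tpm2 at 5.88 to 6.52. The myosin light chain gene Myl9 was at 7.72 to 8.37 in WASP-deficient and at 7.25 to 7.99 in WASP-intact lymphomas, a difference of 0.42 (SE 0.16, limma adjusted p = 0.999).

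**Figure D4:**
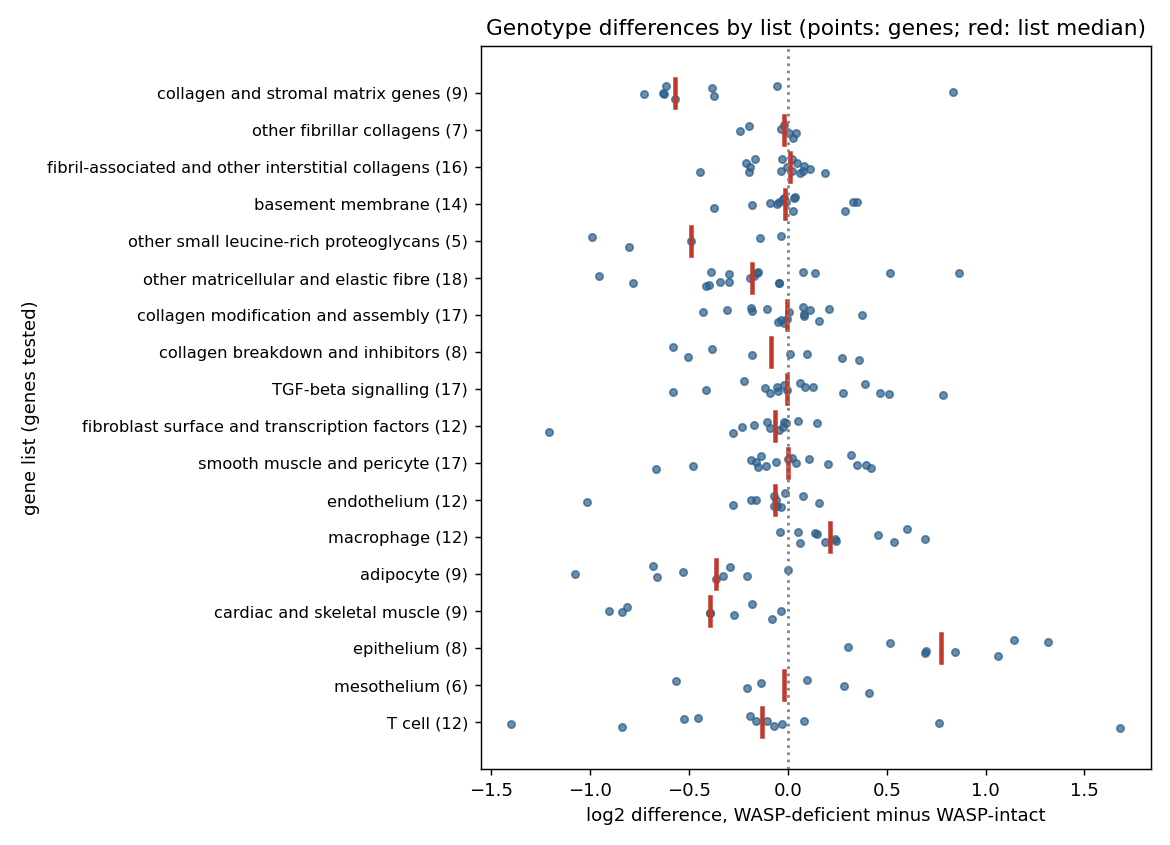
Genotype difference of each tested gene (points; horizontal axis, log2, WASP-deficient minus WASP-intact) in 18 gene lists (rows, number of genes tested in brackets); vertical position within a row is random and red bars are list medians. The matrix genes have a median of -0.57 and the other small leucine-rich proteoglycans one of -0.49, while the other collagen lists lie near 0.

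Genes of other cell types were high on some of the same arrays. WASP-intact array 4 had a summed cardiac and skeletal muscle level of 9373 intensity units over 12 genes, against 1128 to 1275 on the 5 WASP-deficient arrays and 1147 to 1566 on the other WASP-intact arrays. All 9 muscle genes tested had lower values (median -0.39), with the actin gene Acta1 at -0.90, the troponin gene Tnnt3 at -0.84 and the creatine kinase gene Ckm at -0.81, each highest on WASP-intact array 4. Adipocyte genes, 11 with a probe set and 9 tested, summed to 1733 to 2207 in WASP-deficient and 2094 to 3217 in WASP-intact lymphomas, with WASP-intact arrays 4 and 5 highest. Of the 9, 8 had lower values and 1 a higher one (median -0.36), with Retn at -0.68 and Cidec at -0.66. At an unadjusted limma p under 0.05, 6 of them were lower and 0 higher, where 1.33% and 1.56% of all genes were. Adipoq, the gene of a fat cell hormone, ranged from 5.45 to 6.35 in WASP-deficient and from 6.60 to 7.56 in WASP-intact lymphomas, a difference of -1.07 (SE 0.23, limma adjusted p = 0.999). Every WASP-deficient Adipoq level lay under the filter level of 6.352, the highest at 6.3514. Adipoq thus passed the filter only through the WASP-intact lymphomas. Endothelial genes (12 tested, 2 with higher and 10 with lower values) summed to 3036 to 4140 in WASP-deficient and 3173 to 4044 in WASP-intact lymphomas, with Kdr at -0.28, Esam at -0.18 and the lymphatic marker Lyve1 at -1.02. Lyve1 was highest on WASP-intact arrays 4 and 5. Epithelial genes (8 tested) had 8 higher values (median 0.77) and summed to 2160 to 3676 in WASP-deficient and 1155 to 2567 in WASP-intact lymphomas, with the keratin genes Krt5 at 1.31, Krt17 at 1.14 and Krt8 at 1.06. Macrophage genes (12 tested, 11 higher, median 0.21) summed to 12150 to 19188 in WASP-deficient and 13056 to 16183 in WASP-intact lymphomas, with Ctss at 0.70, Fcgr3 at 0.60 and Mrc1 at 0.54. Mesothelial genes (6 tested) split into 3 higher and 3 lower values (median -0.02), with Lrrn4 at -0.57, Upk1b at 0.41 and Bnc1 at 0.29, and had sums of 663 to 1229 in WASP-deficient and 622 to 1032 in WASP-intact lymphomas. T cell genes (12 tested, 3 higher and 9 lower, median -0.13) summed to 21479 to 29739 in WASP-deficient and 24997 to 26533 in WASP-intact lymphomas, with Cd3g at 1.68, Cd28 at -1.40 and Cd2 at -0.84. At that unadjusted limma p, 5 epithelial and 4 macrophage genes were higher with 0 lower, and 2 endothelial genes were lower with 0 higher. For the muscle, mesothelial and T cell lists the count was 0 in both directions. No gene of these lists passed the test, none is at 0 on a scale of this kind, and their part in the matrix gene values was not tested.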

How the data were processed

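RNA of 10 lymphomas was hybridised to Affymetrix arrays. The authors deposited 1 intensity per probe set and array, and the submitters' processing notes name RMA. For software, version and build, nothing is given in the sources used here. Intensities ran from 3.309 to 15587.9, a linear scale, so log2 was taken. Quantile normalization within RMA removes array-wide differences, and the number of arrays limits the precision. No column was left unused (0) and 0 pairs of columns were identical.

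Probe sets were named from the platform annotation, with gene IDs checked in RefSeq GRCm38.p6 (names only): 21640 of 34760 had 1 symbol, 1321 several, and the rest were unnamed here. Probe sets with a mean under the 40th percentile (log2 6.35) were left out and the brightest kept per gene, which gave 12670 genes. Genotypes (groups from the sample titles) were compared with limma 3.58.1 in R 4.3.3 (lmFit, eBayes) and Benjamini-Hochberg over all genes at 0.05, after a test on simulated data. The labels call the replicates biological. Same-numbered arrays were not paired, since 2 of 5 pairs had correlated deviations (r over 0.1). Figures used matplotlib 3.10.9.

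The genes and lists were chosen with earlier results of these data known. Genes named are the 10, Was, Cd2, the 3 largest absolute differences per list, and the 8 nearest profiles. Cd3e, Cd3d, Xist, Kdm5d, Uty, Thy1 and P4ha1 fall outside this rule and were named after their values were seen. Alternatives were the filter, probe set rule, variance model, array weights, repeated quantile normalization, replicate block, unequal variances, covariates and left-out arrays.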

Additional observations from a re-analysis of the deposited data

Results flagged for a closer look

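Acta2 on WASP-intact array 5, at 10.20, stood far from the other 4 WASP-intact arrays, at 9.22 to 9.46, with a gap of 0.760 of the range of the group. Without that array the Acta2 difference was 1.0 (SE 0.20, limma adjusted p = 1.0), against 0.83 on all arrays. It was the 1 such array in 20 sets of 5 values, and chance gives about 1 in 20.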

How the results depend on the processing

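Over 207 values of the 10 genes under other settings, 207 kept the direction of the difference and 0 passed the test. The median of the 9 genes above the filter moved by more than its spread between arrays (0.37) in 1 setting, to -0.19 with array weights, against -0.57 as reported. That median was -0.31 without the arrays with high Cd2 and -0.42 with Cd2 class as a covariate. The spread is an SD over single arrays and not the error of a difference between genotypes, so it is a wide yardstick. Leaving out 1 array at a time kept that median between -0.68 and -0.42. The number of genes past the threshold, 1 as reported, was 2 with unequal variances and 2 without the arrays with high Cd2. It was 0 with the Xist covariate (187 at an unadjusted p under 0.05) and 1 to 4 without single arrays. The 4, reached without WASP-intact replicate 3, were Was, Xist and the Y chromosome genes Kdm5d and Uty. That replicate was the 1 WASP-intact array with low Xist. Fitted with the replicate number as a block, the number of genes past the threshold was 0 (248 at an unadjusted p under 0.05). The gene lost under the block and the Xist covariate was Was, with limma adjusted p of 0.136 and 0.376. Among WASP-deficient arrays, 0 of 5 correlated best with the WASP-intact array of their own number. The cause of these changes was not tested. The alternatives for Lum, which lies under the filter, and the listing of Was on its own were chosen after seeing the data. Precision is limited by 5 arrays per genotype and, for Lum, by signal near background.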

Other observations

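WASP-deficient array 4, which had the lowest level of 8 of the 10 matrix genes, had the highest level of the prolyl hydroxylase gene P4ha1, at 10.59 against 9.46 to 9.60 on the other WASP-deficient arrays and 9.46 to 10.02 on the WASP-intact arrays. P4ha1 modifies collagen chains before they fold and is also known as a hypoxia-induced gene. Plod1 was likewise highest there, at 10.22, and Tgfb3, at 10.82. These genes were picked after their values were seen, and no relation between them was tested.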
